A study of Mus musculus with 12 samples.

Results

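Solute carriers are membrane proteins that move nutrients, ions, metals and metabolites across the plasma membrane and the membranes of organelles, and their gene symbols begin with Slc and a family number. The set described here is made of the array's Slc genes that the thymocytes gave a detectable signal for. A symbol of Slc followed by a digit was required, with a deposited detection p-value under 0.05 on at least 3 of the 12 arrays. Slc2a1, Slc11a2, Slc25a37 and Slc40a1, which carry glucose or iron, were left out. Of 307 such symbols 124 were kept, out of 8247 genes detected by the same rule and 18138 symbols on the array. The members were chosen by symbol and by these detection p-values, under a rule set with earlier results of these data known. Which carriers were detected is a description and was given no test.

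RNA came from thymic T cells of C57BL6/J mice aged 8 to 12 weeks, an even mix of males and females per the labels. All samples were sorted for both CD4 and CD8, and their titles give a low forward scatter gate. The 4 groups, of 3 arrays each, were CD71-positive cells and CD71-negative cells of mice homozygous for the nes allele of Caph2, called mutant here, and the same 2 subsets of Caph2+/+ mice, called wild type. The nes allele is the I15N change in the condensin II subunit that current annotation names Ncaph2. It is a germline change, carried by all cells of the mutant mice. CD71 is the transferrin receptor, which takes up iron and is displayed by dividing cells. Whether replicate samples are separate mice or pools is not stated in the labels, so p-values measure the spread between these samples alone.

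Arrays detected 5893 to 7415 symbols each, and 73 to 108 of the 124 members. Within a group arrays correlated at 0.963 to 0.993, and no pair held identical values. Tfrc, which encodes CD71, was higher in the CD71-positive sort by 1.30 log2 in mutants and 1.15 log2 in wild type, and Ncaph2 itself showed no change between genotypes past the threshold. Of 9 markers of CD4 CD8 double-positive thymocytes 8 were detected, and Cd8a was detected on 0 arrays although the cells were sorted for CD8, so a gene without detection is not shown to be absent. The summed normalized signal of these 9 markers was 4120.1 to 4390 in mutant CD71-positive cells against 10111 to 10659.5 in mutant CD71-negative cells, and 4422 to 6350.2 in wild-type CD71-positive cells against 11013 to 12691 in wild-type CD71-negative cells. Cd8b1 and Cd3e, the brightest, made up most of each sum (means 12.40 and 11.69 log2 in mutant CD71-negative cells). Of the 8 tested, 6 were lower in CD71-positive cells of mutants and 0 higher by limma, beside 14.3% of all genes lower. In wild type 6 were lower and 1, Ptcra, was higher, beside 13.1% of all genes lower and 12% higher. Rag2 passed in neither genotype. Of 15 myeloid and dendritic markers 10 were tested, and 7 rose in CD71-positive over CD71-negative cells of mutants, against 0 in wild type. Their sum was 1408, 2719.6 and 949 in mutant CD71-positive replicates 1, 2 and 3, 673 to 699 in mutant CD71-negative cells, 747 to 914 in wild-type CD71-positive cells and 645 to 658 in wild-type CD71-negative cells. Of this list Itgax and Lyz1 were detected on 0 arrays, whereas Lyz was detected on 11 and Lyz2 on 7. Entries with no detection had a median of 5.41 log2, so an undetected marker still adds background to a sum. Much of the CD71-negative sums of the myeloid list is such background. Both marker lists move with the CD71 comparisons below, and their part in the carriers' differences was not tested. In sorted bulk samples, fewer cells of a type and less RNA per cell cannot be told apart.

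Carriers work by different means. Exchangers and cotransporters let one solute move down its gradient to drive another, uniporters let a solute cross either way, and carriers of the Slc25 family sit mainly in the inner mitochondrial membrane. T cells that begin to divide are known to take up more amino acids, glucose and nucleosides, and several amino acid carriers are induced on activation of mature T cells. Whether a carrier's RNA differs between the CD71 subsets, and whether it differs between Caph2 genotypes, are the questions that this design allows.

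Detection differed by class. Classes were set mainly by symbol family and named for its main solute or site, so not every symbol of a class matches the name. The nucleotide sugar class, made of all Slc35 symbols, was detected for 16 of 20 symbols, mitochondrial carriers for 25 of 39 and metal carriers for 14 of 24. Amino acid carriers were detected for 18 of 55 symbols, inorganic ion carriers for 15 of 49, nucleoside carriers for 3 of 8, and carriers of sugars and monocarboxylates for 9 of 41. A further 21 of 63 carriers of other organic solutes were detected, and 3 members (Slc9a3r1, Slc4a1ap and Slc7a6os) have Slc symbols but encode no transporter. On all 12 arrays 43 members were detected, among them 14 mitochondrial carriers but 1 amino acid carrier, whereas 104 Slc symbols were detected on none. Several of the carriers named here regardless of outcome were outside the set. Slc7a1, Slc29a2, Slc43a3, Slc25a4 and Slc16a3 were detected on 0 arrays, Slc38a1 and Slc16a1 on 1 and Slc20a1 on 2. At the edge of the rule, 11 members such as Slc6a8 and Slc38a10 were detected on exactly 3 arrays, and 23 symbols such as Slc20a1, Slc15a3 and Slc36a1 on exactly 2. Slc1a5, a glutamine carrier, and Slc37a3 were detected in CD71-negative cells alone, on 5 and 3 arrays, and neither passed the test.

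Between CD71 subsets a minority of the carriers changed, and more fell than rose. In mutants 23 of 124 members (18.5%) passed an adjusted p of 0.05 by limma, where 28.8% of all genes tested did, and 9 rose while 14 fell. With array weights, which count arrays that fit their group less closely for less, 53 members (42.7%) passed in mutants, 17 higher and 36 lower, where 52.8% of all genes did. In that fit mutant CD71-positive replicate 1 weighed 4.99, beside 0.734 and 0.647 for replicates 2 and 3. Mutant CD71-negative replicate 2 weighed 4.56, beside 0.408 and 0.97 for replicates 1 and 3, so each group rests largely on 1 array. In wild type without weights 20 members (16.1%) passed, where 25.1% of all genes did, and 5 rose while 15 fell. Over all genes rises made up 14.5% and falls 14.3% in mutants, and 12% and 13.1% in wild type. Arrays of the subsets did not overlap for 49 members in mutants and 43 in wild type, beside 46.9% and 39.7% of all genes. The median log2 difference of the members was -0.02 in mutants and -0.01 in wild type, beside -0.01 and -0.01 over all genes, and the median size was 0.0477 in mutants and 0.0519 in wild type, beside 0.104 and 0.0945. In both genotypes 5 members rose and 10 fell, and 0 changed in opposite directions. A further 8 passed in mutants alone and 5 in wild type alone, and 96 passed in neither, but no member's CD71 difference differed between genotypes past the threshold.

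**Figure D1:**
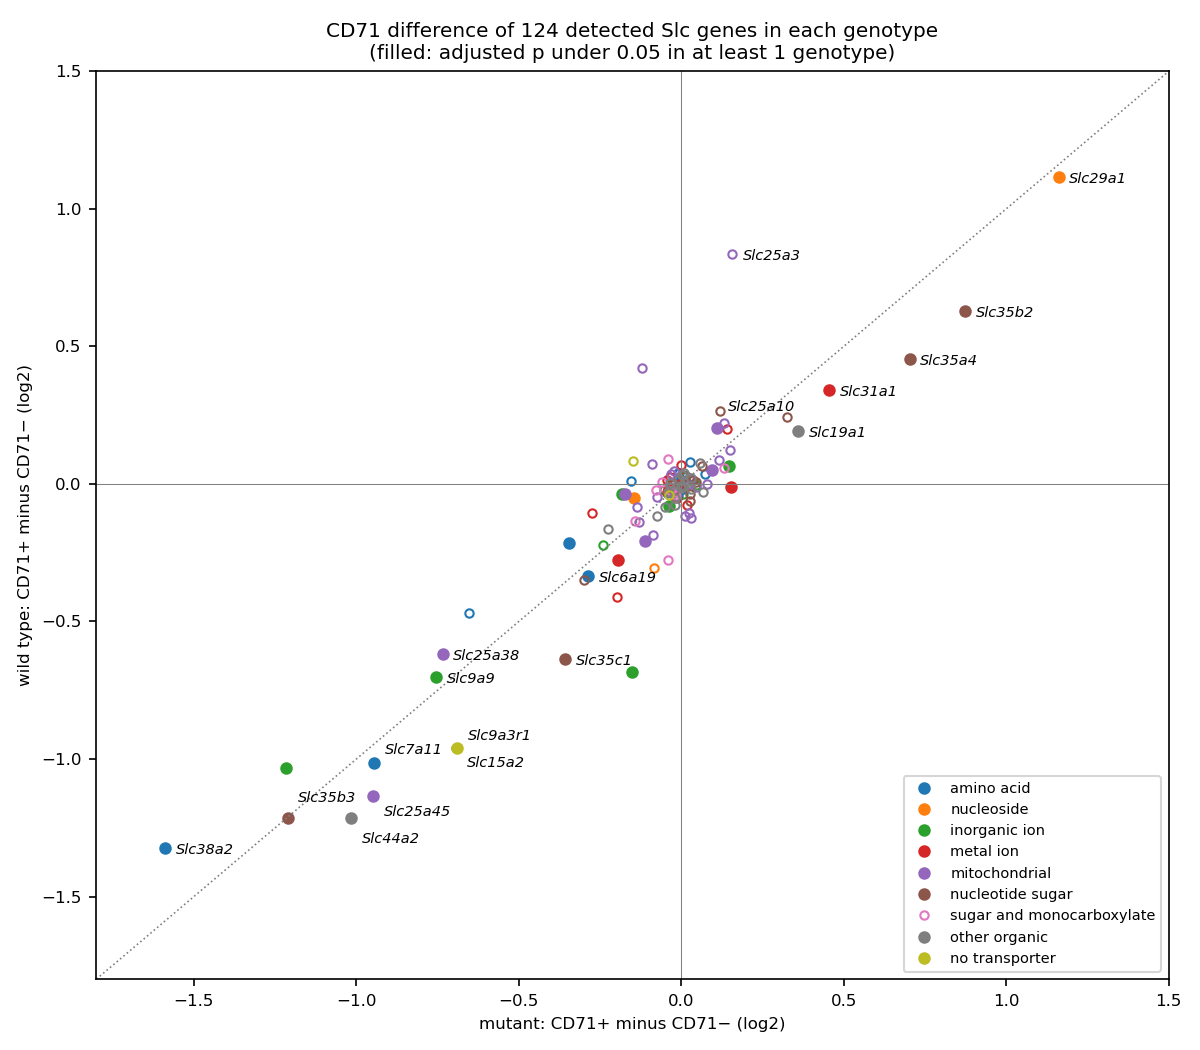
Each point is one of the 124 detected Slc genes, with the CD71-positive minus CD71-negative log2 difference in mutants on the horizontal axis and in wild type on the vertical axis. Colours give the class of solute, filled points passed an adjusted p of 0.05 in at least 1 genotype, and the dotted line marks equal differences. Slc29a1 lies farthest up and right and Slc38a2 farthest left, and most members lie near 0.

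Most members were dim. Of the 124, 66 had all 4 group means within 0.2 log2 of 5.41, the median normalized value of entries with no detection, and 3 of these passed in either genotype, against 25 of the 58 brighter members. Among members detected on 3 to 5 arrays 1 of 25 passed in each genotype (4%), beside 7.93% of all such genes in mutants and 5.99% in wild type. Among those detected on 6 to 11 arrays the share was 21.4% in mutants and 16.1% in wild type, beside 23.9% and 20.5%. Among the 43 detected on all arrays it was 23.3% in each genotype, beside 40.3% of all such genes in mutants and 35.6% in wild type. The normalization adds 16 to each signal before taking logs, which understates the fold changes of dim genes.

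**Figure D2:**
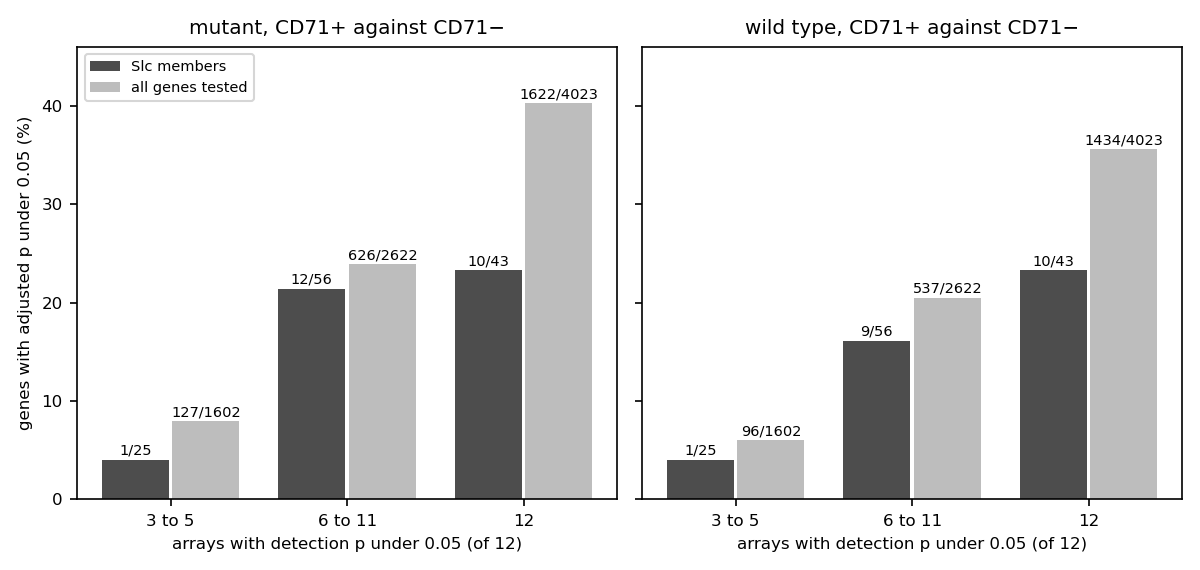
Bars give the percentage of genes with an adjusted p under 0.05 between CD71-positive and CD71-negative cells, by the number of arrays on which a gene was detected, for mutants (left) and wild type (right). Dark bars are the Slc members and light bars all genes tested, with counts above them. Among genes detected on all 12 arrays the members' share was 23.3% in both panels, below that of all genes.

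Nucleosides reach the cytosol through equilibrative carriers (Slc29), which let them cross either way, or concentrative ones (Slc28), which use the sodium gradient. Slc29a1, the main equilibrative nucleoside carrier of many cells, had the largest rise of any member in both genotypes. Its normalized log2 signal was 7.86, 7.87 and 7.31 in mutant CD71-positive cells, against 6.89, 6.59 and 6.07 in mutant CD71-negative cells. In wild type it was 7.18, 7.48 and 7.26 in CD71-positive cells, against 6.34, 6.23 and 6.002 in CD71-negative cells. All CD71-positive arrays were above all CD71-negative arrays of either genotype. It rose 2.24-fold in mutants (log2 1.16 ± 0.22 SE, n = 3 arrays per group, limma adjusted p = 0.0036) and 2.17-fold in wild type (1.12 ± 0.22, adjusted p = 0.0050). Slc28a2, a concentrative carrier of purine nucleosides, moved the other way in mutants: it had 5.44, 5.43 and 5.41 in CD71-positive cells, on none of which it was detected, against 5.56, 5.59 and 5.57 in CD71-negative cells. It was thus at least 1.11-fold lower in CD71-positive mutant cells (limma adjusted p = 0.0041, means 5.43 and 5.57). In wild type its means were 5.46 and 5.51 (adjusted p = 0.22), although without wild-type CD71-negative replicate 1 the fall passed (log2 -0.09, adjusted p = 0.034). Slc29a3, the lysosomal equilibrative carrier, did not pass in mutants (log2 -0.09 ± 0.15) or wild type (-0.30 ± 0.15).

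The RefSeq start of Slc29a1 used here (GRCm38.p6, minus strand, chr17:45595197-45595496, from 250 bases before the start to 50 after it) holds an E box, the motif CACGTG bound by Myc and related factors, which begins 75 bases before the start. It is 1 of 8 starts annotated for the gene, and the others hold no CACGTG. It is shown because Slc29a1 had the largest rise, and the capitals mark the motif.
Slc29a1: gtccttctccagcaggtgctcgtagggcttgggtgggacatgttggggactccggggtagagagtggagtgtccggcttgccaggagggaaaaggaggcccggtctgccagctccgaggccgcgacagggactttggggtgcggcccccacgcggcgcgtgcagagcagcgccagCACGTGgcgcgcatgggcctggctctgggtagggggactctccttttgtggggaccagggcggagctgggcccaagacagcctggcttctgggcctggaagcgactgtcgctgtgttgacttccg
Slc25a1, the citrate carrier that rose in mutants, has the same motif 239 bases before its start (minus strand, chr16:17928170-17928469), again in capitals.
Slc25a1: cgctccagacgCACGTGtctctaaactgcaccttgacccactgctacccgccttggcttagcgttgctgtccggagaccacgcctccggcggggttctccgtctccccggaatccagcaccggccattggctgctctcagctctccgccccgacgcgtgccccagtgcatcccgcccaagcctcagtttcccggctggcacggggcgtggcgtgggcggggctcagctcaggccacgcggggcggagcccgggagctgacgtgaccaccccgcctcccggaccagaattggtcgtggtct
On either strand CACGTG occurred in 19 of 137 windows of the 102 members with a RefSeq promoter (13.9%), beside 7.15% of all 32851 windows of the same length. Counted by gene, where any 1 window suffices, 3 of 7 members that rose in either genotype held it. So did 1 of 16 that fell and 13 of 79 that passed in neither. Genes with more starts have more windows and no share by gene was made for all genes, so these counts cannot be set against the window shares. CCAAT, a common promoter motif, occurred in 38.7% of members' windows and in 37.4% of all. These matches are descriptions of letters in a window, without a test.

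Of the amino acid carriers, 4 of 18 fell in mutants and 3 of 18 in wild type, and 0 rose. Over all genes falls made up 14.3% and rises 14.5% in mutants, and 13.1% and 12% in wild type. Nothing particular to the class is read from its counts. The class median was -0.01 in mutants and -0.02 in wild type, beside -0.01 and -0.01 over all genes. Slc38a2, a sodium-coupled carrier of neutral amino acids that cells induce when amino acids are scarce, had the largest fall of any member. Its log2 signal was 7.44, 7.38 and 7.83 in mutant CD71-positive cells, against 8.81, 8.97 and 9.64 in mutant CD71-negative cells. Wild-type values were 7.80, 7.43 and 7.65 in CD71-positive cells, against 8.77, 8.63 and 9.45 in CD71-negative cells. The highest CD71-positive array lay well below the lowest CD71-negative array in each genotype. Slc38a2 was 3.01-fold lower in CD71-positive cells of mutants (log2 -1.59 ± 0.26 SE, limma adjusted p = 0.0018) and 2.50-fold lower in wild type (-1.32 ± 0.26, adjusted p = 0.0055).

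Slc7a11, the cystine and glutamate exchanger that supplies cysteine for glutathione, had 5.46, 5.45 and 5.55 in mutant CD71-positive cells, against 6.19, 6.59 and 6.51 in mutant CD71-negative cells. Wild-type values were 5.87, 5.63 and 6.02 in CD71-positive cells, against 6.88, 6.23 and 7.45 in CD71-negative cells. The subsets did not overlap in either genotype, and the wild-type CD71-negative arrays spread over more than 1 log2. It fell by 0.94 ± 0.26 log2 in mutants (limma adjusted p = 0.023) and by 1.01 ± 0.26 log2 in wild type (adjusted p = 0.019). Both calls were lost when single libraries were left out, in mutants CD71-negative replicate 2 or 3 or CD71-positive replicate 1 or 2 (adjusted p 0.062 to 0.084), and in wild type CD71-negative replicate 1 or CD71-positive replicate 1 or 2 (0.053 to 0.065).
Slc7a11 is known to be induced through C/EBP-ATF response elements when amino acids run short. The sequence around its RefSeq start (GRCm38.p6, minus strand, chr3:50443564-50443863) holds TGATGNAAN at 66 and 48 bases before the start, on opposite strands, in capitals here.
Slc7a11: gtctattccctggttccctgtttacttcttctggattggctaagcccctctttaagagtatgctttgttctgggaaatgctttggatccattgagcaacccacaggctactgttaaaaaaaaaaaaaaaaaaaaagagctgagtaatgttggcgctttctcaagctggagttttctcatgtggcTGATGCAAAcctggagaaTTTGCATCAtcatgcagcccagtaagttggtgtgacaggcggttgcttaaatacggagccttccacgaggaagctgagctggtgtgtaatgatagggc
Slc9a9, a sodium/proton exchanger of endosomes that also fell, has a match 69 bases before its start (plus strand, chr9:94669642-94669941).
Slc9a9: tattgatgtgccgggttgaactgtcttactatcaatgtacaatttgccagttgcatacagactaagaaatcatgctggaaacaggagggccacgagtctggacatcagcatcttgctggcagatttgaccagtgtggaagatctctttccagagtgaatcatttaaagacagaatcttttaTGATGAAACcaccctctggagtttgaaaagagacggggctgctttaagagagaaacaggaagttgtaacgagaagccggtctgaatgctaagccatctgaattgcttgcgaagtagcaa
Over the members 3 of 137 windows held this motif (2.19%), beside 3.95% of all windows, and the single window of Slc38a2 held none. Sequence outside the windows was not searched, so the motif is not shown to be absent from that gene.

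The smaller amino acid changes were of 2 carriers with different roles. Slc6a19, a neutral amino acid carrier best known from gut and kidney, had 5.41, 5.47 and 5.42 in mutant CD71-positive cells against 5.78, 5.66 and 5.72 in mutant CD71-negative cells. Wild-type cells gave 5.43, 5.46 and 5.50 in the CD71-positive sort against 5.82, 5.72 and 5.85 in the CD71-negative sort. It fell by 0.29 ± 0.04 log2 in mutants (limma adjusted p = 0.00074) and by 0.33 ± 0.04 in wild type (adjusted p = 0.00036), with no overlap. Slc38a9, the lysosomal carrier that reports arginine to the growth regulator mTORC1, fell by 0.34 ± 0.08 log2 in mutants (adjusted p = 0.013). In wild type its means were 5.50 in CD71-positive and 5.72 in CD71-negative cells (adjusted p = 0.097). Slc3a2, the heavy chain that pairs with several Slc7 carriers, differed by 0.01 ± 0.03 log2 in mutants and 0.03 ± 0.03 in wild type. Slc7a6, one of its light chains, differed by 0.03 ± 0.03 in mutants and 0.08 ± 0.03 in wild type, and Slc7a5, another light chain, is not among the symbols analysed here. Both lay close to the level of undetected entries, where a change would be compressed.

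**Figure D3:**
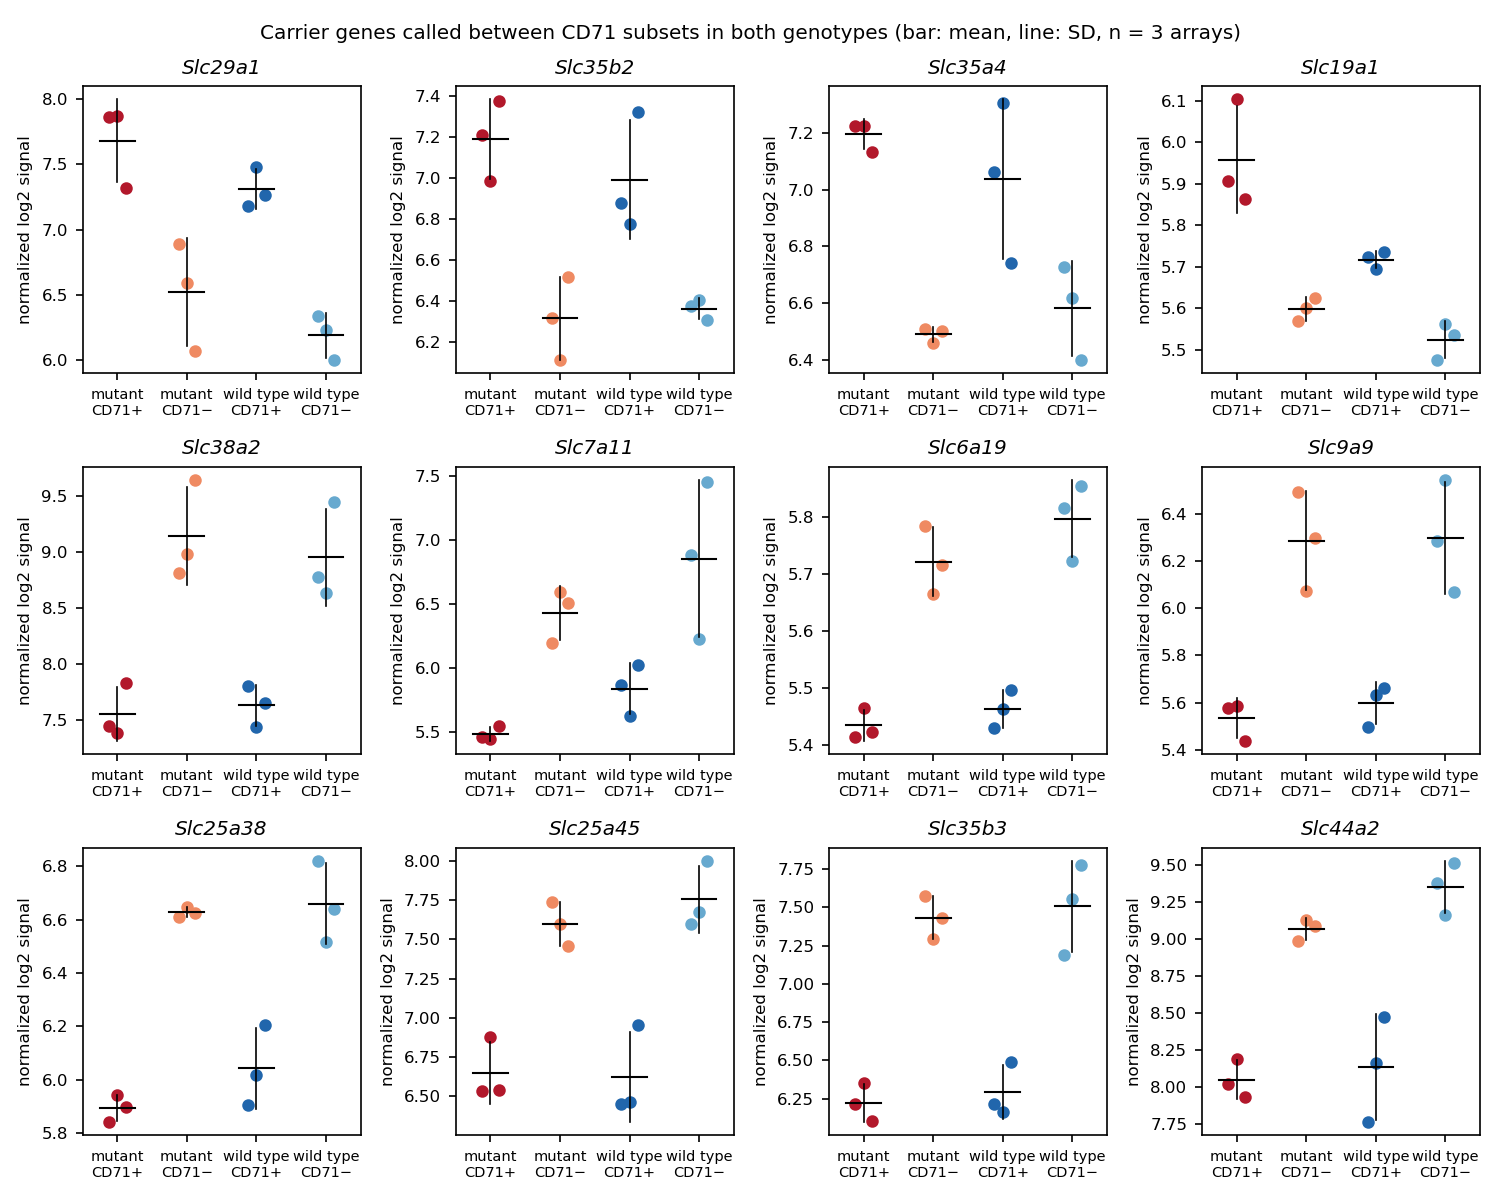
Points are normalized log2 signals of single arrays for 12 Slc genes that passed between CD71 subsets in both genotypes, with mutant CD71-positive, mutant CD71-negative, wild-type CD71-positive and wild-type CD71-negative cells from left to right. Bars are means and lines SD of 3 arrays, and each panel has its own axis, which does not start at 0. In the first 4 panels the CD71-positive arrays lie above the CD71-negative ones of their genotype, and in the other 8 they lie below.

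Of 15 inorganic ion carriers 3 fell and 1 rose in mutants, and 4 fell and 0 rose in wild type. These calls made up 26.7% of the class in each genotype, beside 28.8% of all genes in mutants and 25.1% in wild type. The class median was -0.04 in mutants and -0.03 in wild type. Potassium-chloride cotransporters carry salt out of cells and sodium-potassium-chloride cotransporters bring it in, and both kinds belong to the Slc12 family. Slc12a7, of the outward kind, had 5.42, 5.44 and 5.43 in mutant CD71-positive cells, not detected on any, against 5.67, 5.62 and 5.54 in mutant CD71-negative cells. It was at least 1.13-fold lower there (adjusted p = 0.0027), while its wild-type means of 5.49 in CD71-positive and 5.53 in CD71-negative cells did not pass (adjusted p = 0.46). Slc12a2, of the inward kind, was the ion carrier that rose, with 5.59, 5.59 and 5.67 in mutant CD71-positive cells against 5.46, 5.47 and 5.47 in mutant CD71-negative cells (log2 0.15 ± 0.03, adjusted p = 0.0033). It was detected on 0 wild-type CD71-negative arrays. Its wild-type means of 5.60 in CD71-positive and 5.53 in CD71-negative cells did not pass (adjusted p = 0.12).

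Sodium/proton exchangers regulate pH, among other places in the Golgi (Slc9a8) and in endosomes (Slc9a9). Slc9a9 had 5.58, 5.59 and 5.44 in mutant CD71-positive cells against 6.49, 6.07 and 6.30 in mutant CD71-negative cells. Wild-type cells gave 5.50, 5.63 and 5.66 in the CD71-positive sort against 6.29, 6.54 and 6.07 in the CD71-negative sort. No arrays of the subsets overlapped, and it was 1.69-fold lower in mutants (limma adjusted p = 0.0024) and 1.63-fold lower in wild type (adjusted p = 0.0039). Slc9a8 fell by 0.08 ± 0.02 log2 in wild type (adjusted p = 0.013), while the mutant means were 5.50 in CD71-positive and 5.54 in CD71-negative cells (adjusted p = 0.17).

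Metal carriers mostly did not pass. In mutants 2 of 14 rose and 0 fell, and in wild type 0 rose and 1 fell. The share that passed was 14.3% in mutants and 7.14% in wild type, beside 28.8% and 25.1% of all genes. Slc31a1, the high-affinity copper importer, had 6.19, 6.10 and 6.05 in mutant CD71-positive cells against 5.74, 5.63 and 5.60 in mutant CD71-negative cells, with no overlap (log2 0.45 ± 0.12 SE, limma adjusted p = 0.017). The call was lost without mutant CD71-negative replicate 2 or 3 or mutant CD71-positive replicate 1 (adjusted p 0.054 to 0.062). Its wild-type arrays did not overlap either, at 5.92, 6.32 and 5.77 in CD71-positive cells against 5.62, 5.69 and 5.67 in CD71-negative cells, but the difference of 0.34 ± 0.12 did not pass (adjusted p = 0.061). Slc39a11, a zinc importer, rose by 0.15 ± 0.04 log2 in mutants (adjusted p = 0.014), a call lost without mutant CD71-negative replicate 2 (adjusted p = 0.052), and differed by -0.01 ± 0.04 in wild type. Slc39a7 releases zinc from the endoplasmic reticulum. It fell by 0.28 ± 0.08 log2 in wild type (adjusted p = 0.027), a call that failed without wild-type CD71-negative replicate 1 or 2 or wild-type CD71-positive replicate 1 or 3 (adjusted p 0.050 to 0.098), and differed by -0.19 ± 0.08 in mutants (adjusted p = 0.087). The zinc carriers Slc39a6 and Slc30a5 and the phagosomal divalent metal carrier Slc11a1, a myeloid marker, passed in neither genotype. Slc11a1 averaged 5.58 ± 0.10 in mutant CD71-positive cells and 5.86 ± 0.40 in mutant CD71-negative cells (SD, n = 3 each).

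Mitochondrial carriers moved in both directions. In mutants 2 of 25 rose and 3 fell, and in wild type 1 rose and 3 fell. The share that passed was 20% in mutants and 16% in wild type, beside 28.8% and 25.1% of all genes. The class median was 0.0099 in mutants and -0.0011 in wild type. The clearest falls were of Slc25a45, whose substrate is less well established, and Slc25a38, which imports glycine for haem synthesis. Slc25a45 had 6.53, 6.88 and 6.54 in mutant CD71-positive cells against 7.74, 7.60 and 7.46 in mutant CD71-negative cells. Wild-type cells gave 6.45, 6.47 and 6.95 in the CD71-positive sort against 7.60, 7.67 and 8.00 in the CD71-negative sort. It was 1.93-fold lower in mutants (limma adjusted p = 0.0024) and 2.19-fold lower in wild type (adjusted p = 0.0010). Slc25a38 had 5.84, 5.94 and 5.90 in mutant CD71-positive cells against 6.61, 6.65 and 6.63 in mutant CD71-negative cells. Wild-type cells gave 5.91, 6.02 and 6.20 in the CD71-positive sort against 6.82, 6.52 and 6.64 in the CD71-negative sort. It was 1.66-fold lower in mutants (adjusted p = 0.00024) and 1.53-fold lower in wild type (adjusted p = 0.00074), and for both genes each CD71-positive array lay below every CD71-negative array of its genotype. Of 7 erythroid markers 0 were detected on at least 3 arrays.

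The dicarboxylate carrier Slc25a10 rose by 0.11 ± 0.03 log2 in mutants (limma adjusted p = 0.023) and by 0.20 ± 0.03 in wild type (adjusted p = 0.0012), and without mutant CD71-negative replicate 2 or 3 or mutant CD71-positive replicate 1 or 2 the mutant call was lost (adjusted p 0.060 to 0.088). Slc25a1, which exports citrate to the cytosol, rose by 0.09 ± 0.02 in mutants (adjusted p = 0.0069), where its arrays read 5.55, 5.56 and 5.54 in CD71-positive cells against 5.44, 5.47 and 5.47 in CD71-negative cells. It was detected on 0 wild-type CD71-negative arrays. Its wild-type means of 5.49 in CD71-positive and 5.44 in CD71-negative cells did not pass (adjusted p = 0.11). Slc25a20, which imports acylcarnitines for fatty acid oxidation, was detected on 0 mutant CD71-positive arrays. It was lower there than in mutant CD71-negative cells (means 5.73 and 5.90, adjusted p = 0.0090). The bright ADP/ATP carrier Slc25a5 had 12.07, 11.97 and 12.32 in mutant CD71-positive cells and 11.88, 12.19 and 12.22 in mutant CD71-negative cells, which overlapped (log2 0.03 ± 0.14). Its wild-type difference was -0.12 ± 0.14.

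Slc25a3 brings phosphate into mitochondria, and its arrays disagreed within a group. It had 8.26, 7.88 and 8.69 in mutant CD71-positive cells and 7.98, 8.19 and 8.18 in mutant CD71-negative cells. In wild type it had 8.39, 7.69 and 8.24 in CD71-positive cells and 6.62, 7.17 and 8.03 in CD71-negative cells, so wild-type CD71-negative replicate 3 overlapped the CD71-positive arrays. Its difference of 0.84 ± 0.35 log2 in wild type did not pass (limma adjusted p = 0.11), but did without that replicate (1.21, adjusted p = 0.016). In mutants the difference was 0.16 ± 0.35 (adjusted p = 0.78).

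Nucleotide sugar carriers of the Slc35 family bring activated sugars and sulphate into the Golgi and endoplasmic reticulum for glycan synthesis. In mutants 2 of 16 rose and 1 fell, and in wild type 2 rose and 2 fell. The share that passed was 18.8% in mutants and 25% in wild type, beside 28.8% and 25.1% of all genes. Slc35b2 and Slc35b3 both carry the sulphate donor PAPS, and they changed in opposite directions. Slc35b2 had 7.21, 6.99 and 7.38 in mutant CD71-positive cells against 6.32, 6.11 and 6.52 in mutant CD71-negative cells. Wild-type cells gave 6.88, 6.78 and 7.32 in the CD71-positive sort against 6.38, 6.41 and 6.31 in the CD71-negative sort. It rose 1.83-fold in mutants (limma adjusted p = 0.0027) and 1.55-fold in wild type (adjusted p = 0.017), with no overlap in either genotype. Slc35b3 had 6.22, 6.35 and 6.10 in mutant CD71-positive cells against 7.57, 7.29 and 7.43 in mutant CD71-negative cells. Wild-type cells gave 6.22, 6.17 and 6.49 in the CD71-positive sort against 7.19, 7.56 and 7.77 in the CD71-negative sort. It was 2.31-fold lower in mutants (adjusted p = 0.00036) and 2.32-fold lower in wild type (adjusted p = 0.00038), again without overlap. The pair's difference from each other was not tested, since signals of different genes are not on one scale.

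Slc35a4, a Golgi member of the family, rose by 0.70 ± 0.13 log2 in mutants (limma adjusted p = 0.0030), with 7.23, 7.23 and 7.13 in CD71-positive cells against 6.51, 6.46 and 6.50 in CD71-negative cells. In wild type the subsets came close, at 7.06, 7.30 and 6.74 in CD71-positive cells against 6.73, 6.62 and 6.40 in CD71-negative cells, and it rose by 0.45 ± 0.13 (adjusted p = 0.029). The wild-type call failed without wild-type CD71-negative replicate 2 or 3 or wild-type CD71-positive replicate 1 or 2 (adjusted p 0.063 to 0.088). Slc35c1, which carries GDP-fucose, had 7.80, 7.54 and 7.65 in mutant CD71-positive cells and 7.79, 8.02 and 8.25 in mutant CD71-negative cells. It had 7.56, 8.04 and 7.87 in wild-type CD71-positive cells against 8.52, 8.39 and 8.47 in wild-type CD71-negative cells, and fell by 0.64 ± 0.14 in wild type (adjusted p = 0.0092). In mutants the arrays overlapped, and means of 7.66 in CD71-positive and 8.02 in CD71-negative cells did not pass (adjusted p = 0.087). Slc35c1 was detected on 5 arrays alone, 0 of them mutant CD71-positive, although its signal was far above that of undetected genes in general, so the deposited detection p did not follow signal for it.

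Carriers of sugars and monocarboxylates gave no call by limma. In mutants 0 of 9 passed and in wild type 0 of 9, beside 28.8% and 25.1% of all genes. An unadjusted p under 0.05 was found for 3 in mutants and 1 in wild type, beside 39.3% and 36.1% of all genes. Slc2a3, a glucose carrier, had 6.07, 6.05 and 6.19 in mutant CD71-positive cells and 5.98, 6.04 and 6.42 in mutant CD71-negative cells. Its wild-type arrays overlapped as well, and its difference was -0.04 ± 0.15 log2 in mutants and -0.28 ± 0.15 in wild type.

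Of 21 carriers of other organic solutes 1 rose and 1 fell in each genotype (9.52%), beside 28.8% of all genes in mutants and 25.1% in wild type. Slc19a1, the reduced folate carrier, had 5.91, 6.10 and 5.86 in mutant CD71-positive cells against 5.57, 5.60 and 5.62 in mutant CD71-negative cells. Wild-type cells gave 5.72, 5.69 and 5.73 in the CD71-positive sort against 5.47, 5.56 and 5.53 in the CD71-negative sort. All 3 mutant CD71-positive arrays were the highest of the 12. It rose by 0.36 ± 0.06 log2 in mutants (limma adjusted p = 0.0012) and by 0.19 ± 0.06 in wild type (adjusted p = 0.032). The wild-type call was lost without any 1 of the 6 wild-type arrays or without mutant CD71-negative replicate 2 (adjusted p 0.052 to 0.098). Slc44a2, a choline carrier-like protein of the plasma membrane and mitochondria, had 8.02, 8.19 and 7.93 in mutant CD71-positive cells against 8.98, 9.13 and 9.08 in mutant CD71-negative cells. Wild-type cells gave 7.76, 8.16 and 8.47 in the CD71-positive sort against 9.37, 9.16 and 9.51 in the CD71-negative sort. It was 2.02-fold lower in mutants (adjusted p = 0.0015) and 2.32-fold lower in wild type (adjusted p = 0.00060), with the subsets far apart. Slc9a3r1, a scaffold protein and not a carrier, fell by 0.69 ± 0.21 in mutants (adjusted p = 0.034) and by 0.96 ± 0.21 in wild type (adjusted p = 0.0084). Its mutant call was lost without any 1 of the 6 mutant arrays (adjusted p 0.051 to 0.10).

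Without mutant CD71-positive replicate 2, the array with the highest myeloid marker sum, 20 members passed in mutants, 8 higher and 12 lower. Leaving out any 1 array gave 19 to 27. The share of all genes that passed in these fits is not given here, so nothing particular to the carriers is read from the counts. The markers' part was not tested.

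Other membrane transport genes were counted beside the carriers, where falls made up 14.3% and rises 14.5% of all genes in mutants, and 13.1% and 12% in wild type, and nothing particular to these short lists is read from the counts. Of 12 ATP-driven ion pumps tested, 4 fell and 0 rose in mutants and 5 fell and 0 rose in wild type, among them the sodium pump subunit Atp1b1, which fell by 1.00 ± 0.27 log2 in mutants (limma adjusted p = 0.021) and by 1.07 ± 0.27 in wild type (adjusted p = 0.017). Of 16 ABC transporters 4 fell and 0 rose in mutants, and 4 fell and 1 rose in wild type. Of 12 genes of amino acid sensing by mTORC1, 3 fell and 0 rose in each genotype, led by Sesn1, which restrains mTORC1 when leucine is scarce and fell by 1.17 ± 0.11 log2 in mutants (adjusted p = 7.5e-05) and by 0.98 ± 0.11 in wild type (adjusted p = 0.00023). Mitochondrial pores and carriers outside the Slc symbols had rises: 4 of 10 rose and 0 fell in each genotype. Sfxn1, a mitochondrial serine carrier, rose by 1.69 ± 0.18 log2 in mutants (adjusted p = 0.00015) and by 1.45 ± 0.18 in wild type (adjusted p = 0.00041). Vdac3, an outer membrane channel, rose by 0.56 ± 0.17 in mutants (adjusted p = 0.033) and by 1.07 ± 0.17 in wild type (adjusted p = 0.0014).

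Between genotypes no carrier passed. In CD71-positive cells 0 of 124 members differed between mutant and wild type by limma, beside 0.424% of all genes, and 6 had an unadjusted p under 0.05 (4.84%, beside 8.55% of all genes). In CD71-negative cells 0 passed, beside 0.424%, and 8 had an unadjusted p under 0.05 (6.45%, beside 10.4%). Averaged over the subsets 0 passed, beside 0.909% of all genes (0.594% higher and 0.315% lower), with 11 at an unadjusted p under 0.05. For the difference of the genotype effect between subsets 0 passed, beside 0.0121%, with 5 at an unadjusted p under 0.05. Arrays of the genotypes did not overlap for 20 members in CD71-positive cells, beside 14.6% of all genes, and for 12 members in CD71-negative cells, beside 14.5%. The median difference was 0.0042 in CD71-positive and -0.0011 in CD71-negative cells, and the median size was 0.0320 and 0.0237, beside 0.0413 and 0.0451 over all genes.

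**Figure D4:**
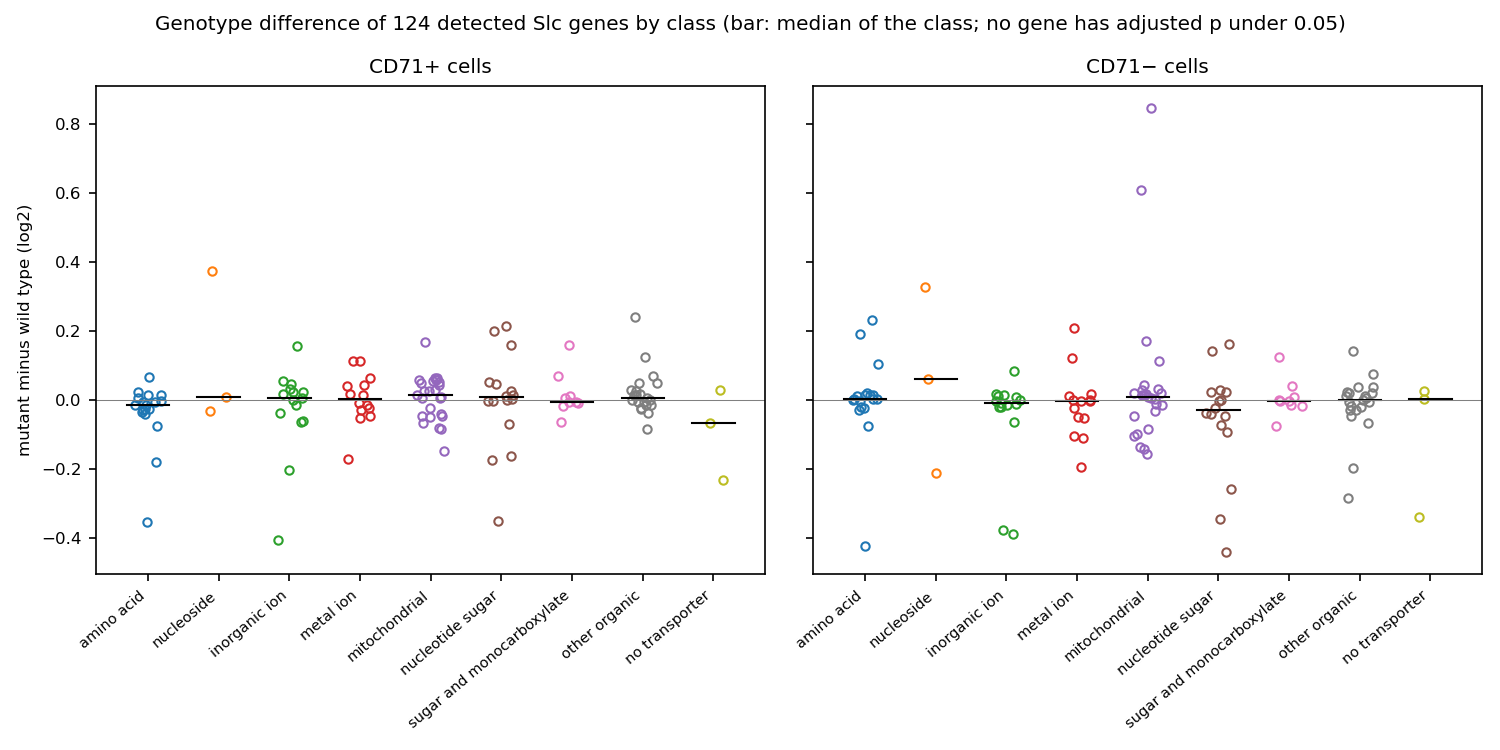
Points are mutant minus wild-type log2 differences of the 124 detected Slc genes in CD71-positive cells (left) and CD71-negative cells (right), by class of solute, with a bar at the median of each class. No point passed an adjusted p of 0.05, and the 2 highest points in CD71-negative cells are the mitochondrial carriers Slc25a3 and Slc25a28.

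Slc19a1 had the smallest p between genotypes in CD71-positive cells. Its mean was 5.96 ± 0.13 in mutant CD71-positive cells and 5.72 ± 0.02 in wild-type CD71-positive cells (SD, n = 3 each), and the 2 groups did not overlap, but the difference of 0.24 ± 0.06 log2 did not pass (limma adjusted p = 0.16). The next were Slc4a1ap (-0.23), Slc39a11 (0.11), Slc25a1 (0.06) and Slc25a10 (-0.08). In CD71-negative cells Slc6a13, a carrier of GABA and taurine, had 5.65, 5.82 and 5.77 in mutants against 5.44, 5.57 and 5.53 in wild type, with no overlap (0.23 ± 0.06, adjusted p = 0.19). Slc35c1 had 7.79, 8.02 and 8.25 in mutants against 8.52, 8.39 and 8.47 in wild type, also without overlap (-0.44 ± 0.14, adjusted p = 0.25). Slc25a20 (0.11), Slc12a7 (0.08) and Slc25a3 (0.84 ± 0.35, adjusted p = 0.43) followed. Averaged over the subsets, the 5 smallest p belonged to Slc19a1 (0.16 ± 0.04, adjusted p = 0.11), Slc6a13 (0.15), Slc35c1, Slc35e3 (-0.35) and the chloride/bicarbonate exchanger Slc4a2 (-0.40 ± 0.15). For the difference between subsets they belonged to Slc12a7 (adjusted p = 0.62), Slc39a11 (0.17 log2, adjusted p = 0.64), Slc25a20 (adjusted p = 0.85), Slc28a2 (adjusted p = 0.88) and Slc4a1ap (-0.23 log2, adjusted p = 0.88). No size is given where a gene was undetected on all mutant CD71-positive arrays. A difference that did not pass is not shown to be absent at 3 arrays per group.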

How the data were processed

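Trizol-extracted, DNase-treated total RNA (80 ng) was amplified and labelled with biotin for 1-colour arrays, per the labels' protocols. Each of 18138 symbols has, per the file headers, an untransformed intensity per array in the deposited table. A detection p-value stands beside each intensity, per the file headers, and probes are not identified, so the way they were combined into symbols is unknown here. A second table of processed intensities from the authors covers 18132 symbols, and the submitters' processing notes mention RMA. Its values are linear (array medians 77.2 to 78.7) and keep the rank order of the raw signal (rank correlation 1). It served as an alternative, and its background step stays unknown. Columns were matched to samples by name, and 0 columns of other samples were present.

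Deposited intensities were corrected and normalized to log2 values with neqc in limma 3.58.1 (R 4.3.3), with an offset of 16 and quantile normalization. Every gene whose detection p was below 0.05 on 3 or more of the 12 arrays was fitted in one model of 4 group means (lmFit, eBayes without trend), and two-sided p-values received Benjamini-Hochberg adjustment over 8247 genes per contrast. A call is an adjusted p under 0.05, and errors beside differences are standard errors of the fit. Where no array of a group detected a gene, a fold given as at least was taken against its own signal there. If higher, the dimmest detected signal of the array was used. Such a fold takes no account of the spread between arrays. The number of arrays limits the precision.

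The members, the classes and the other gene lists were chosen with earlier results of these data known. Members were matched to RefSeq of GRCm38.p6, 123 by symbol and 1 as a synonym, and promoter windows run from 250 bases before to 50 after a start. Members named in the text are, per class and CD71 comparison, up to 4 called in each direction, the 5 smallest p-values per genotype comparison, and a set of 29 carriers named regardless of outcome. Some members that this rule takes are not reported here. Slc25a28 was named after its values were seen. Alternatives were other normalizations, backgrounds, filters and variance models, array weights, a replicate block and leaving out each array. The fit was also tested on simulated data. Replicate numbers of the subsets of a genotype were not used to pair the arrays in the main fit. After group means were removed, 4 of 6 same-numbered pairs correlated over 0.1 (range -0.405 to 0.513). With 3 arrays per group this cannot settle whether the numbers pair the arrays.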

Additional observations from a re-analysis of the deposited data

How the results depend on the processing

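No gene named among the members reversed its direction in a comparison where it was called. With array weights the number of members called in mutants between CD71 subsets became 53 (17 higher, 36 lower) in place of 23, beside 52.8% of all genes. The count in wild type was 21 (16.9%, beside 29.2% of all genes). Members called between genotypes became 3 in CD71-negative cells (2.42%, beside 5.59% of all genes), in place of 0. Averaged over the subsets they became 4 (3.23%, beside 6.72% of all genes), also in place of 0. Mutant CD71-positive replicate 1 (weight 4.99) and mutant CD71-negative replicate 2 (4.56) far outweighed the other arrays of their groups in this fit. Its counts for mutants thus rest largely on 1 array of each group. The cause of these changes was not tested. Leaving out each array in turn gave 19 to 27 members in mutants, 14 to 21 in wild type, and 0 for each genotype comparison and the difference between subsets. The remaining alternatives gave 21 to 31 members in mutants, 14 to 24 in wild type and 0 between genotypes. Of 43 calls of single members, 28 held under every alternative run. Of 77 comparisons of named members without a call, 13 were called under at least one. With the replicate number as a block, 22 members were called in mutants and 16 in wild type, with the calls of Slc19a1, Slc39a7 and Slc9a8 among those lost in wild type and those of Slc25a1 and Slc9a3r1 lost in mutants. Except for array weights, the share of all genes called under these alternatives is not given here. Nothing particular to the carriers is read from those counts. Whether the numbers pair the arrays was not settled, and 6 of the 12 arrays correlated best with one of their own number. Most members lie near the level of undetected entries, where signal over background limits the size of any difference.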

Other observations

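Symbols on this array follow an older annotation, and 11 detected genes that carry an Slc symbol in current RefSeq annotation stood under other names and were not members, among them Dirc2 (Slc49a4), Rag1ap1 (Slc50a1) and Pqlc2 (Slc66a1). One member, Slc24a6, is now Slc8b1. Slc15a2, a peptide carrier, was chosen after its values were seen, because 1 array carried its wild-type difference. It had 5.52, 5.50 and 5.53 in mutant CD71-positive cells against 5.997, 6.70 and 5.94 in mutant CD71-negative cells. Wild-type cells gave 5.48, 5.44 and 5.43 in the CD71-positive sort against 7.52, 5.96 and 5.75 in the CD71-negative sort. Every CD71-positive array lay below every CD71-negative array, yet limma's shared fit gave adjusted p = 0.24 in mutants (log2 -0.69 ± 0.40) and 0.12 in wild type (-0.96 ± 0.40).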
